A study of Mus musculus with 2 samples.

Results

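Klf4 peaks were examined at 10 genes of the smooth muscle contractile programme: the regulators Myocd and Srf, the contractile and actin-filament genes Acta2, Myh11, Tagln, Cnn1, Myl9, Tpm1 and Lmod1, and the adhesion gene Vcl. A genomic window of 30 to 140 kb in mm9 coordinates was set around each gene, and a peak was counted for a gene when its midpoint fell in the gene's window. Of the 7313 peaks in the list, 5 lay in the windows. They fell in 4 of the 10 windows, those of Srf, Tpm1, Vcl and Lmod1, and Lmod1 held 2. For comparison, the shares of same-sized stretches that hold a peak sum to 1.41 windows over the genome and to 2.91 within 1 Mb of the genes. The windows of Acta2, Myh11, Tagln, Cnn1, Myl9 and Myocd held no peak.

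The peaks came from chromatin immunoprecipitation and sequencing (ChIP-seq) of mesenteric arcades, the small vessels that supply the gut, from C57BL/6 mice kept on chow. The precipitating antibody was raised against Klf4. One library came from SMC eYFP+/+ Klf4WT/WT mice, in which Klf4 is intact, and 1 from SMC eYFP+/+ Klf4Δ/Δ mice, in which Klf4 is deleted in smooth muscle cells (SMC). Both genotypes carry the eYFP alleles, while the driver of the deletion, the age of the mice and how many were pooled are not stated by the labels. The chromatin came from the stromal vascular fraction, labelled as a mix that holds macrophages and epithelial cells beside SMC, and a peak at a smooth muscle gene may thus come from any of them. Nothing in the peak list says which library a peak came from. The genotypes were therefore not compared, whether a peak depends on Klf4 was not tested, and each value below is a single value without replicate error.

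Klf4 is a zinc-finger factor that binds CACCC-type and GC-rich DNA. Smooth muscle contractile genes are classically driven by Srf, which binds the CArG box, a motif of CC, 6 A or T bases and GG, together with its coactivator Myocd. In cultured and injured smooth muscle, Klf4 is known as a repressor of this programme, acting on genes such as Acta2 and Tagln near their CArG boxes.

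Promoter sequences show how these elements are arranged at the members. RefSeq promoters (build GRCm38.p6, 250 bases before to 50 after the transcription start) were matched by symbol for 7 of the 10 members, namely Srf, Vcl, Tpm1, Lmod1, Acta2, Cnn1 and Myl9. The 250 bases before the start are printed for Srf and Vcl, whose windows held a peak and whose promoters carry a CArG box, for Tpm1, which had a peak and no match, and for Acta2 and Myl9, which have CArG-type boxes and had no peak. Capitals mark CArG boxes (with up to 1 G or C among the central 6 bases), CACCC and the GC box CCCGCCC, on either strand. The coordinates in these lines belong to GRCm38.p6 and cannot be set against the mm9 coordinates of the peaks.
Srf (chr17:46556163-46556412, minus strand): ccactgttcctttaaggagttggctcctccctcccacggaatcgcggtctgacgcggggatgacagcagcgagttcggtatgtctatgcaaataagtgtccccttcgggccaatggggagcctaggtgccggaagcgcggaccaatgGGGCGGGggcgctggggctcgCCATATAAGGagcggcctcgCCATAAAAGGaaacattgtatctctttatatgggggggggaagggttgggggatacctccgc
Vcl (chr14:20929148-20929397, plus strand): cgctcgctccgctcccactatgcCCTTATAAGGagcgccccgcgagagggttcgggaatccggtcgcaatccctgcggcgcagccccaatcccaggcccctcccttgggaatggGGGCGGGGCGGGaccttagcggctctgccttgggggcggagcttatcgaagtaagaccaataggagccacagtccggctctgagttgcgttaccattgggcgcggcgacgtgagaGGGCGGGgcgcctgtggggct
Tpm1 (chr9:67049214-67049463, minus strand): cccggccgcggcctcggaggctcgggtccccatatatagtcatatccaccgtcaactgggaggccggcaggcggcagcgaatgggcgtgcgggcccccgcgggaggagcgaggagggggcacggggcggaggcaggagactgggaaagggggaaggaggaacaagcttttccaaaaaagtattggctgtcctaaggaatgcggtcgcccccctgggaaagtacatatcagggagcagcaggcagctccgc
Acta2 (chr19:34255374-34255623, minus strand): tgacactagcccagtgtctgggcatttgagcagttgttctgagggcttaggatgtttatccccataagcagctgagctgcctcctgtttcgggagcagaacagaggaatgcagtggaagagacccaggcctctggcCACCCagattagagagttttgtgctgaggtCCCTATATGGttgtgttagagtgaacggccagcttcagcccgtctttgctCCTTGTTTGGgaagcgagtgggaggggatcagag
Myl9 (chr2:156775214-156775463, plus strand): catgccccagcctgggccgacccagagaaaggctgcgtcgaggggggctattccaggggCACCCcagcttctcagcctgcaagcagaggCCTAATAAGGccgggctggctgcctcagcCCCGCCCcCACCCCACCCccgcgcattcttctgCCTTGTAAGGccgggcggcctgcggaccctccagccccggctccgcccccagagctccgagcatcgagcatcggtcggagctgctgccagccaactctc
In the Srf promoter, the capitals from left to right are a GC box on the opposite strand starting 103 bases before the transcription start, and the CArG boxes CCATATAAGG at 82 and CCATAAAAGG at 62 bases before it. In that of Vcl they are the CArG box CCTTATAAGG at 227 bases before the start, GC boxes on the opposite strand at 136 and 131, which overlap, and another at 21. Acta2 has CACCC at 114 bases before the start, followed by the CArG-type boxes CCCTATATGG at 84 and CCTTGTTTGG at 34, each with 1 C or G in its centre. Myl9 has CACCC at 191 bases, the CArG box CCTAATAAGG at 161, a GC box at 132, CACCC at 124 and 119, and the CArG-type box CCTTGTAAGG at 99. A match describes letters only.

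Srf encodes the DNA-binding factor of the contractile programme, and its window held 1 Klf4 peak. The peak spanned chromosome 17, 46691780 to 46692884 (1105 bp), with its midpoint 22.3 kb inside a 40 kb window. Its score of 119.15 was above 54.7% of all peaks in the list (rank 3314). The score is the value that the authors' peak caller gave each peak, and peaks are ranked here from the highest score down. Among the 22 peaks in the window and within 1 Mb on either side of it, the Srf peak ranked 12. Its nearest neighbours lay 306.1 kb before it and 72.5 kb after it. The Srf peak was thus near the middle of the list by score, and stood alone in the window. Per kb of peak width it stood lower, with 107.8, above 31.6% of peaks.

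Myocd, the Srf coactivator restricted to smooth and cardiac muscle, was at the other end. Its 130 kb window on chromosome 11 held no peak, and neither did the 500 kb on either side. The nearest peak midpoints were 1076.7 kb before the window (score 155.82) and 501.3 kb after it (score 159.73). The stretch without a peak measured 1707.1 kb, rank 320 by length among the 7278 stretches between neighbouring peaks, of which 4.38% were longer. Stretches at least this long make up 42.6% of the sequence between the first and last peaks of the chromosomes, so such a setting is common by length. Chromosome 11 as a whole averaged 5.21 peaks per Mb, against 1.0 per Mb (95% Poisson interval 0.121 to 3.61, counting error only) within 1 Mb of the Myocd window.

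Vcl had the strongest peak of the 10 genes. Vinculin, its product, links actin filaments to integrins and cadherins at adhesion sites. The peak spanned chromosome 14, 21748630 to 21749942 (1313 bp), 19.3 kb inside the start of a 140 kb window. Its score of 348.77 was rank 160 of 7313, above 97.8% of peaks, rank 8 of 252 on chromosome 14 and rank 1 of 20 within 1 Mb of the window. Per kb of width it scored 265.6, above 96.1% of peaks. Further peaks sat just past the other end of the window, at 1.14 and 2.15 kb outside, with scores of 120.13 and 138.09. By the midpoint rule they were not counted for Vcl.

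Of the 7 contractile and actin-filament genes, 2 had peaks, Tpm1 and Lmod1, which is near the 1.84 windows that same-sized stretches within 1 Mb give (0.838 over the genome). Tpm1 encodes a tropomyosin, which lies along the actin filament. Its peak on chromosome 9, 66895763 to 66896671 (909 bp), had a score of 145.33, above 69.6% of peaks and rank 6 of 12 within 1 Mb. The score per kb of width was 159.9, above 70.8% of peaks. No further peak followed for 584.5 kb, whereas the preceding one was 101.1 kb away.

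Lmod1 encodes leiomodin, a nucleator of actin filaments in smooth muscle. Its 70 kb window on chromosome 1 held a peak at each end. The peak at 137209748 to 137211066 (1319 bp) scored 110.48, close to the median of the list, 112.02, and ranked 11 of 18 within 1 Mb. Per kb of width this peak scored only 83.8, above 13.3% of peaks. Its midpoint lay only 0.406 kb inside the window, and 253 of its bases lay outside. The peak at 137270617 to 137271622 (1006 bp) scored 199.67, above 85.5% of peaks, and ranked 4 of 18 within 1 Mb. Per kb of width this peak scored 198.5, above 85.4% of peaks. Its midpoint was 8.88 kb from the end of the window. A window 10 kb narrower on each side held neither, so the assignment of both peaks to Lmod1 depended on the window's limits.

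**Figure D1:**
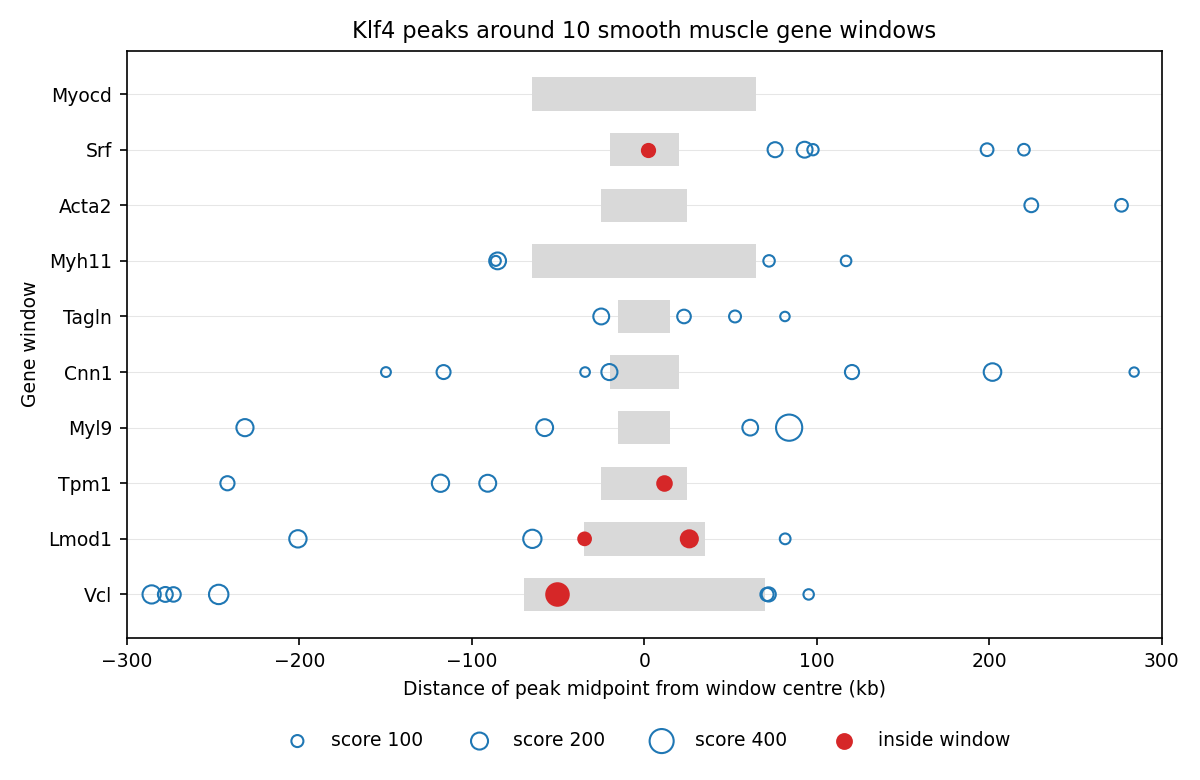
Klf4 peaks within 300 kb of the centre of each window, with distance in kb on the x axis and 1 gene per row. Grey bars are the windows, filled circles the 5 peaks inside them, open circles peaks outside, and circle area is proportional to score. Myocd has no peak in the range shown and the nearest to Acta2 is 199.4 kb from its window, whereas the peak next to Cnn1 touches the window's edge.

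Acta2, which encodes smooth muscle alpha-actin and is the most used marker of mural cells, had no peak in its 50 kb window on chromosome 19. The nearest peaks were 199.4 kb after the window (score 130.75) and 635.8 kb before it (score 74.41). The surrounding stretch without a peak was 884.3 kb long, and 9.87% of stretches between neighbouring peaks were longer. Within 1 Mb of the window there were 6 peaks, or 3.0 per Mb (interval 1.10 to 6.53), beside 4.74 per Mb on the whole chromosome, and the highest of them scored 130.75.

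The other 4 genes without a peak had Klf4 peaks within 50 kb of the window. With all 10 windows widened by 50 kb, 8 held a peak, beside 5.91 for same-sized stretches within 1 Mb. Cnn1, which encodes calponin, an actin-binding inhibitor of myosin ATPase, had a peak at chromosome 9, 21889341 to 21890239 with a score of 178.3 (rank 1414). Its midpoint lay 0.210 kb before the window, and 239 of its 899 bases lay inside. Cnn1 was the only gene that gained a peak when an overlap of 1 base sufficed. This peak and the first Lmod1 peak were the nearest to a window limit on either side of it, 0.210 kb outside and 0.406 kb inside.

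Tagln, which encodes the actin-binding protein SM22-alpha, had a peak on each side of its 30 kb window on chromosome 9. They lay 9.95 kb before it (score 173.8) and 8.04 kb after it (score 127.81). Myh11, the smooth muscle myosin heavy chain and the most specific marker of the lineage, had a peak 7.35 kb after its 130 kb window on chromosome 16, with a score of 90.93. Before that window a pair of peaks lay 20.02 and 21.07 kb away, with scores of 195.02 and 69.53. Myl9, the regulatory myosin light chain, had its nearest peaks at 42.8 kb before (score 196.24) and 46.4 kb after (score 171.01) its 30 kb window on chromosome 2. Peaks this near to a window cannot be assigned to a member or to a neighbouring gene from these data. In the gene order of GRCm38.p6, the genes next to Cnn1 are Ecsit and Elof1, those next to Tagln are Pcsk7 and Sidt2, those next to Myh11 are Nde1 and Cep20, and those next to Vcl are Plau and Ap3m1. For Lmod1 the neighbours are Timm17a and Shisa4.

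Scores of the 5 peaks ranged from 110.48 to 348.77 with a median of 145.33, beside a range of 60.01 to 1023.8 and a median of 112.02 over the list. Of the 5, 4 were above the median of the list, the exception being the first Lmod1 peak, and 2 were above its upper quartile of 161.17, those of Vcl and the second of Lmod1. Widths ran from 909 to 1319 bp with a median of 1105 bp, against 913 bp for all peaks. Over the 9 peaks that lay outside a window but within 25 kb of it, the median score was 127.81. With so few peaks these medians describe the members and were not tested.

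**Figure D2:**
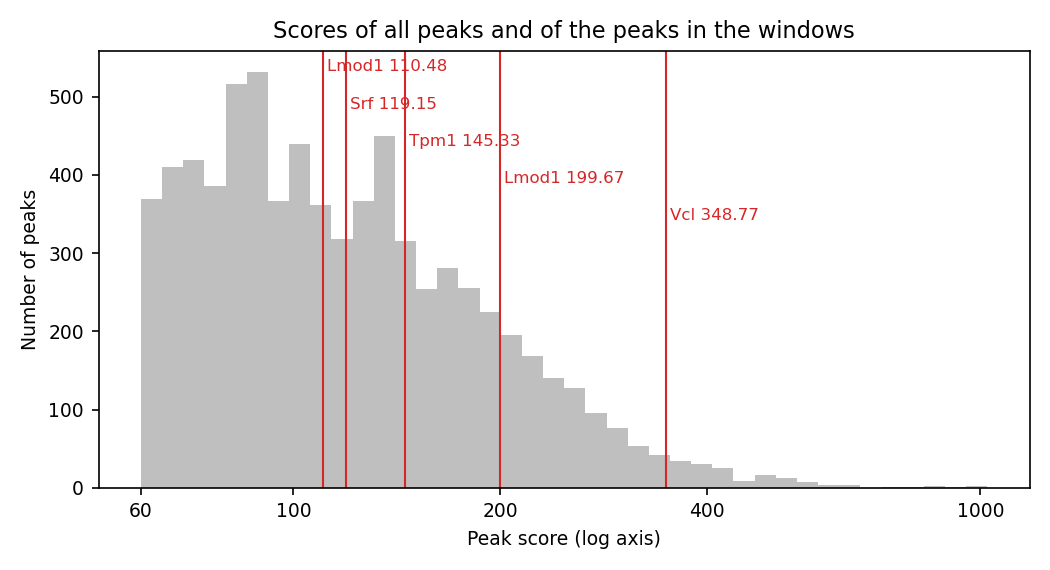
Histogram of the scores of all 7313 peaks on a log axis, with a line for each of the 5 peaks in the windows. The lines for Lmod1 (110.48) and Srf (119.15) fall in the middle of the distribution, and the line for Vcl (348.77) falls in its upper tail.

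How often a stretch of the same size holds a peak was read from tiles laid over the autosomes and chromosome X. A peak midpoint fell in 7.20% of 30 kb tiles, 9.29% of 40 kb tiles and 11.2% of 50 kb tiles. The share was 14.7% for 70 kb, 23.2% for 130 kb and 24.3% for 140 kb. Summed over the 10 window sizes, these shares came to 1.41 windows, against the 4 with a peak. Tiles include sequence without genes, and 8 of the 10 windows lay in surroundings denser in peaks than their chromosome, all but those of Acta2 and Myocd. When tiles were laid only over the 1 Mb on either side of each window, the shares summed to 2.91 windows. They ranged from 12.5% at Acta2 to 64.3% at Vcl. The 4 windows with a peak were thus nearer to the local count than to the genome-wide one.

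Peak density in the windows as given was close to that of their flanks. The 710 kb of windows held 7.04 peaks per Mb (interval 2.29 to 16.4), beside 2.86 per Mb over the autosomes and chromosome X. The 1 Mb flanks of the 10 windows held 136 peaks, or 6.80 per Mb. With windows widened by 25 kb on each side the density was 11.6 per Mb, against 6.45 in the 1 Mb beyond them. Windows and flanks were thus farther apart in value at that size. The counting interval of the windows as given rests on 5 peaks. It measures neither the rise to 11.6 nor the gap to the flanks, and neither was tested. Flanking density was 10.5 per Mb at Srf, 10.0 at Cnn1, 9.5 at both Vcl and Myl9, 8.0 at Lmod1, 5.5 at each of Myh11, Tagln and Tpm1, 3.0 at Acta2 and 1.0 at Myocd. The intervals of neighbours in this order overlap. In 8 of the 10 genes the flanks were denser than the chromosome as a whole in value, and Acta2 and Myocd were the exceptions. Genes with a peak in the window had flanks of 5.5 to 10.5 per Mb and those without 1.0 to 10.0 per Mb, so the groups overlapped.

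**Figure D3:**
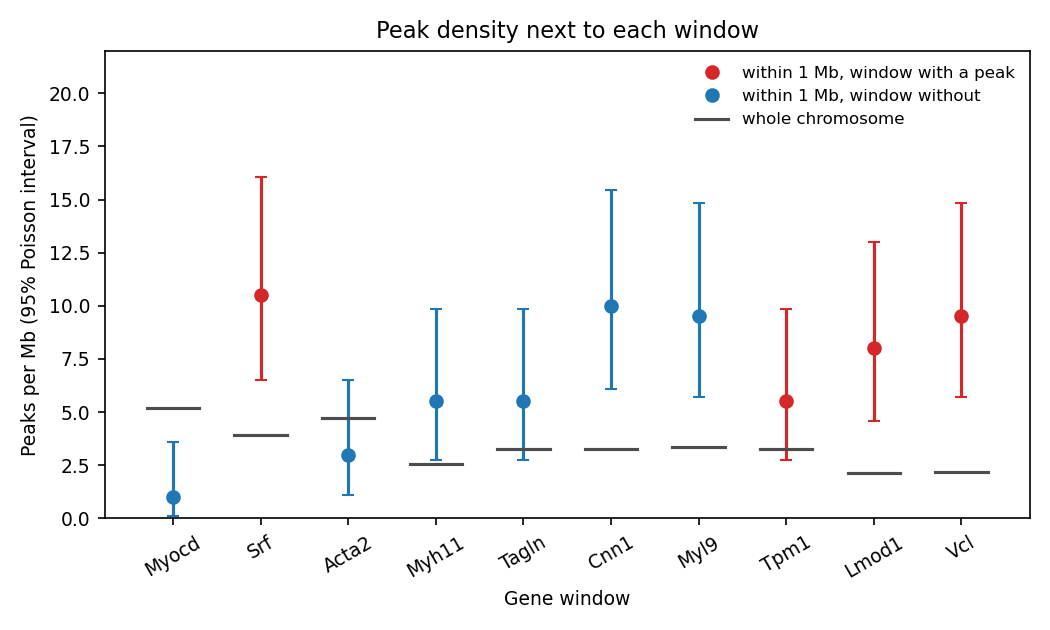
Klf4 peaks per Mb within 1 Mb on either side of each window (points, with 95% Poisson intervals for counting error) and over the whole chromosome (horizontal lines). Points for Acta2 (3.0) and Myocd (1.0) lie below their chromosomes, and the other 8 lie above.

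Because several peaks lay at the edges, the number of genes with a peak rose quickly as windows were widened. With 5 kb added on each side, 5 genes had a peak, Cnn1 being added, beside shares of 3.41 within 1 Mb and 1.57 over the genome. With 10 kb there were 7, through Myh11 and Tagln, while tile shares summed to 3.85 within 1 Mb and to 1.73 over the genome. Myl9 joined at 50 kb, making 8 genes against local shares of 5.91, and Acta2 at 250 kb, making 9 against 9.0. At 250 kb very few tiles of the widened size fit within 1 Mb, so that local sum is coarse. Myocd had none even at 500 kb, where 9 genes had a peak and genome-wide shares summed to 6.79.

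**Figure D4:**
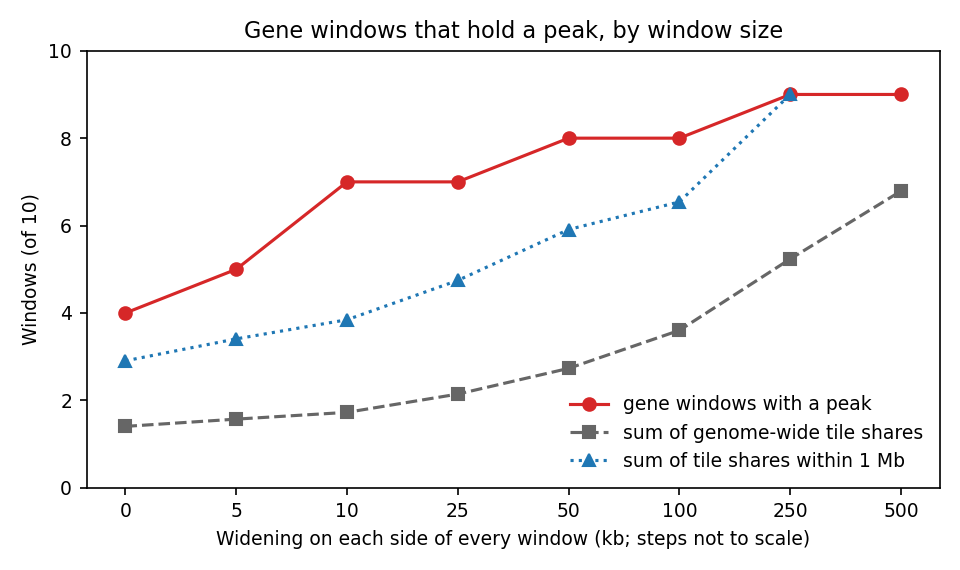
Number of the 10 gene windows that hold a Klf4 peak (circles) when each window is widened by 0 to 500 kb on each side, with the sum of the shares of same-sized tiles that hold a peak over the genome (squares) and within 1 Mb (triangles, up to 250 kb). The circles go from 4 at the given windows to 7 at 10 kb and 9 at 250 kb, where they meet the triangles. The last triangle is coarse, since very few tiles of that size fit within 1 Mb.

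In the sequences, CArG boxes were present in 3 of the 7 matched promoters, those of Srf, Vcl and Myl9, beside 1.63% of all 32851 promoters in the table. With 1 G or C allowed among the central bases the count was 4, through Acta2, beside 9.98% of all promoters. These genes are listed because they belong to a programme known for CArG boxes. Of the 4 matched genes with a peak in the window, 2 had a CArG box (Srf and Vcl) and 2 had none (Tpm1 and Lmod1). Among the 3 matched genes without a peak, Myl9 had one and Acta2 and Cnn1 had none.

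The KLF-type motif CACCC was found in 4 of 7 promoters, those of Acta2, Cnn1, Myl9 and Srf, beside 57.5% of all promoters. It was present in all 3 matched genes without a peak and in 1 of the 4 with a peak, Srf, where it lay after the transcription start. The longer form CCCACCC, which contains CACCC, was found in Cnn1 and Myl9 (17.5% of all promoters), and CCACACCC, which also contains it, in none of the 7 (3.56%). The GC box CCCGCCC was present in Srf, Vcl, Lmod1 and Myl9, beside 25.6% of all promoters. By these letters, the GC box was in 3 of the 4 genes with a peak and in 1 of the 3 without. CACCC was in 1 of 4 and in 3 of 3, while its count of 4 of 7 was near the share of all promoters. With 7 genes these counts are a description. The grouping also turned on the limits of the windows. Cnn1 counted as without a peak by 0.21 kb, and Lmod1 held none when windows were narrowed by 10 kb. Whether a peak lies on the promoter itself was not read, since peaks and promoters are on different builds.

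Promoters of Srf, Tpm1 and Vcl were rich in CpG dinucleotides, with 25, 27 and 30 CpGs in 300 bases. They exceeded 81.6%, 84.5% and 88.3% of all promoters, whose median was 7. Myl9, without a peak, had 20, more than 73.5% of promoters. Acta2 and Cnn1, also without a peak, had 6 each, and Lmod1 had 7 although its window held 2 peaks. The 3 promoters with the most CpGs were thus those of genes with a peak in the window. Lmod1, also with peaks, had fewer CpGs than Myl9, so genes with and without a peak overlapped. By GC content the order differed, and Myl9, without a peak, was highest at 68.3% (above 88.0% of promoters). Vcl had 66.7%, Tpm1 66.3%, Srf 63.3%, Cnn1 59.3%, Lmod1 55.0% and Acta2 54.7%. The CpG count was chosen after the peaks had been seen.

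**Figure D5:**
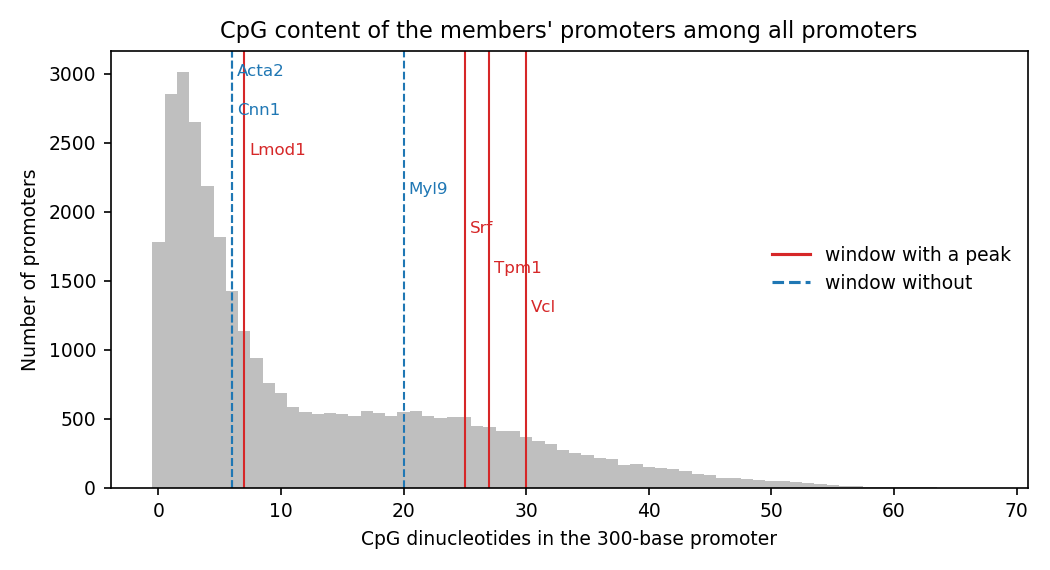
Number of CpG dinucleotides in the 300-base RefSeq promoters of all genes in the table (grey bars) and in the 7 matched members (solid lines, window with a peak, and dashed lines, window without). Srf, Tpm1 and Vcl have 25 to 30 CpGs, Myl9 has 20, and Acta2, Cnn1 and Lmod1 have 6 or 7.

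For a wider view of the programme, promoters of 14 further smooth muscle and Srf-pathway genes were searched, without peaks, since no mm9 window was set for them. They were Smtn, Des, Cald1, Synpo2, Mylk, Actg2, Tpm2, Flna, Itga8, Kcnmb1, the Srf coactivators Mkl1 and Mkl2 (listed as Mrtfa and Mrtfb), Klf4 and Elk1, and 13 were matched. None of the 13 had an exact CArG box in this span, which is near the share of all promoters, 1.63%. Only 1, Mrtfa, had one with a deviating base, also near the share of 9.98%. CACCC was present in at least 1 promoter of 11 genes, beside 57.5% of all promoters. The GC box was present in 4, Des, Flna, Klf4 and Smtn, beside 25.6%. These shares count promoters and not genes, and a gene can have several promoters. Srf, Vcl and Myl9 were thus the only genes of the 20 matched in both lists with an exact CArG box in these 300 bases. CArG boxes farther from the start or in introns were not searched.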

How the data were processed

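Anti-Klf4 ChIP-seq was made from 1 library per genotype, and 1 peak list for the series was used. The deposited score of each peak is as the authors' peak caller gave it. MACS is the caller by the peak names. No label states its version, its threshold or the control library. The submitters' processing notes list the build mm9, Bowtie and SAMtools with no version. Read depth is unknown, so weak and absent peaks are not evidence of absent binding. Other deposited values, peak starts and ends, were converted to 1-based coordinates.

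The 10 windows were set in mm9 by a rule and could not be checked against an mm9 annotation here; each was at least as long as its gene in GRCm38.p6. The genes, windows and lists were chosen with earlier results of these data known. All members are named. No test was run, since there were no replicates. Poisson intervals are exact, at 95%, and cover counting error only. Tiles began at each chromosome's first peak and ended at its last. Alternatives were score limits, merging peaks under 1 kb apart, overlap in place of midpoint, and window sizes. Counting and motif search were tested on simulated data. Software was scipy 1.17.1, pandas 2.3.3, numpy 2.4.6, matplotlib 3.10.9 and Python 3.11.15.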

Additional observations from a re-analysis of the deposited data

How the results depend on the processing

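The counts turned on the limits of the windows. The windows held 5 peaks as given, 14 when widened by 25 kb and 3 when narrowed by 10 kb, and 2 peaks were left in the upper 25% of scores. The number of genes with a peak, 4, was 2 with the upper 25% of scores and 7 with windows widened by 25 kb. Tile shares over the genome summed to 1.41, 0.47 and 2.145 windows in these settings. Within 1 Mb they summed to 2.91 as given and to 4.745 at 25 kb. Widening chosen after seeing the data gave 7 at 10 kb, 8 at 50 and 100 kb, and 9 at 250 and 500 kb. The genome-wide shares at these 5 sizes summed to 1.73, 2.73, 3.60, 5.24 and 6.79. Local shares summed to 3.85, 5.91, 6.54 and 9.0 from 10 to 250 kb. The upper 50% of scores left 4 peaks, an overlap of 1 base gave 6 peaks and 5 genes, and narrowing gave 3 genes. Merging peaks under 1 kb apart changed neither count. Genome-wide shares summed to 0.854 with the upper 50% of scores and to 1.037 with narrowing. For the overlap setting no matching share was computed, since tiles were counted by midpoint. The median score, 145.33, was 132.95 with windows widened by 25 kb. Divided by peak width, the median in the windows as given was 159.9 per kb, a different unit that cannot be set against 145.33. Density, 7.04 peaks per Mb, was 11.6 with widening and 5.88 with narrowing. The counting interval of the first value does not measure these changes, which were not tested. CArG boxes were found in 3 promoters, 4 with a deviating base and 3 before the start alone. No paired analysis was possible because each genotype has 1 library and the list names no genotype.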
